A study of Mus musculus with 21 samples.

Results

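LSK cells, the lineage-negative Sca1+ cKit+ stem and progenitor fraction of mouse BM, were compared between terminally ill leukemic mice and both of the study's control genotypes. The comparison uses the 7 LSK libraries among the study's 21 RNA-seq libraries, chosen by their labels: 3 S3 leukemic MxCre;Ptpn11D61Y/+ libraries (animals 540, 768 and 815), 2 Control MxCre libraries and 2 Control Ptpn11D61Y/+ libraries. The remaining 14 libraries hold CD11b+ cells of the BM and the spleen. MxCre is a Cre transgene under an interferon-responsive promoter, and Ptpn11D61Y/+ is a knock-in of an activating SHP2 mutant behind a removable Neo-Stop cassette. According to the methods all mice received poly I:C in 3 doses, which induces Cre, while the sample labels list no treatment. The S3 mice thus lost the cassette and express the mutant. Mice labelled Ptpn11D61Y/+ lack Cre and keep the cassette, so that their mutant allele stays silent and 1 wild-type copy is left, and MxCre mice carry Cre and 2 wild-type copies. S3 denotes full-blown, terminal disease. Ages are not given in the labels, and the share of LSK cells that lost the cassette is not given. The paper places S3 at 7 months or more after poly I:C. It gives no such time for the control libraries, so whether they match S3 in age is not known. For RNA the methods give 3 mice per genotype, for CD11b+ cells only. Whether a control library came from 1 or several animals is not said, so p-values measure the spread between these libraries.

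SHP2, the phosphatase encoded by Ptpn11, carries signals from cytokine and growth factor receptors to RAS and on to the ERK kinases. Activating Ptpn11 mutations are the most frequent lesion of juvenile myelomonocytic leukemia, in which hematopoietic progenitors overproduce monocytes and granulocytes. LSK cells contain the long-lived stem cells, kept quiescent by transcription factors such as Meis1, Mecom and Hlf, together with multipotent progenitors that divide and start to express myeloid, lymphoid or megakaryocytic genes. Cell survival in this compartment is governed by the BCL-2 family, whose anti-apoptotic members hold BH3-only proteins and the pore-forming effectors in check.

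Total counts per LSK library ran from 68319460 (S3 815) to 104509425 (Ptpn11D61Y/+ 1), and levels are given as log2 CPM, the count scaled to library size and TMM factor with a prior count of 2. The sort markers were present in every library. Kit, the receptor for stem cell factor, measured 9.29 and 9.26 log2 CPM in the MxCre libraries, 9.46 and 9.58 in the Ptpn11D61Y/+ libraries and 8.97, 8.82 and 8.70 in the S3 libraries. Ly6a, which encodes Sca1, lay at 6.20 and 5.92 in MxCre, 6.46 and 6.60 in Ptpn11D61Y/+ and 5.93, 6.68 and 6.78 in S3, and Cd34 at 9.29 and 9.48 in MxCre, 8.93 and 9.09 in Ptpn11D61Y/+ and 9.20, 9.08 and 9.14 in S3. Both of these overlapped between the groups. Transcripts of other lineages were found as well, and 2 libraries stood apart by them. Ly6g, a neutrophil surface antigen, had 1125 and 847 counts in the MxCre libraries against 8 and 1 in Ptpn11D61Y/+ and 19, 29 and 59 in S3. For beta-globin (Hbb-bs) the counts were 80972 and 37050 in MxCre, 2526 and 1250 in Ptpn11D61Y/+ and 3010, 1640 and 861 in S3. The 19 mature neutrophil genes summed to 5129 and 4408 CPM in MxCre, 544 and 424 in Ptpn11D61Y/+ and 1165, 1701 and 2635 in S3, with S100a9 the most abundant. The 14 B cell genes summed to 14980 and 7673 CPM in MxCre, 24350 and 32070 in Ptpn11D61Y/+ and 9543, 3465 and 10960 in S3, most of it Igkc, although the lineage depletion should remove B cells. T cell genes stayed low, with Cd3e at 67 and 27, 32 and 25 and 20, 16 and 18 counts in the same order. S3 was therefore compared with each control genotype alone as well, and the part of these other cells in the changes below was not tested. In sorted pools, fewer cells of a type and less RNA per cell cannot be told apart.

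Sex also divided the libraries. By Xist, the RNA of the inactive X chromosome, and 4 Y-linked genes, all 4 control libraries and S3 540 were male and S3 768 and S3 815 were female. Xist had 88850 and 39460 counts in these 2 libraries and at most 17 counts in the other 5, and the Y-linked genes had 0 counts in both. The labels do not give the sex. Female sex occurred only in S3, so that it could be separated from disease only through the male S3 library, and counts are repeated below for the 5 male libraries alone (S3 540 against the 4 controls, with the lone S3 library assumed to vary like the controls). Unlike its LSK library, with 1 Xist count, the BM CD11b+ library of animal 540 held both 2780 Xist and 958 Y-linked counts. Both kinds were also found in BM CD11b+ MxCre 2 (2834 and 1900) and in spleen CD11b+ 540 (712 and 4225). Of these libraries, BM CD11b+ 540 and BM CD11b+ MxCre 2 both enter the comparison with BM CD11b+ cells below.

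Of 18057 genes tested with edgeR, 6229 differed between S3 and both control genotypes at an adjusted p under 0.05 (34.5%), 3404 higher (18.9%) and 2825 lower (15.6%). An unadjusted p under 0.05 was reached by 8413 genes. Against MxCre alone 5652 genes were called (31.3%, 2952 higher and 2700 lower), and against Ptpn11D61Y/+ alone 6697 (37.1%, 3522 higher and 3175 lower). The 2 comparisons share the S3 libraries. In all, 3997 genes (22.1%) were called in the same direction against both genotypes together and against each of them, 2246 higher (12.4%) and 1751 lower (9.7%), and these are called consistent below. Every S3 library lay above all 4 controls for 4243 genes (23.5%) and below all 4 for 3682 (20.4%). The 5 male libraries gave 2310 calls, 1464 higher and 846 lower, and of the 3997 consistent genes 1941 (48.6%) stayed called in the same direction there. With sex as a covariate 3539 genes were called, 2440 higher and 1099 lower. A fit of all 21 libraries, in which the spread of the CD11b+ libraries enters the error, called 8. With library size in place of TMM scaling 5768 genes were called, of which 43.6% rose instead of 54.6%, and against MxCre alone 38.6% instead of 52.2%.

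**Figure D1:**
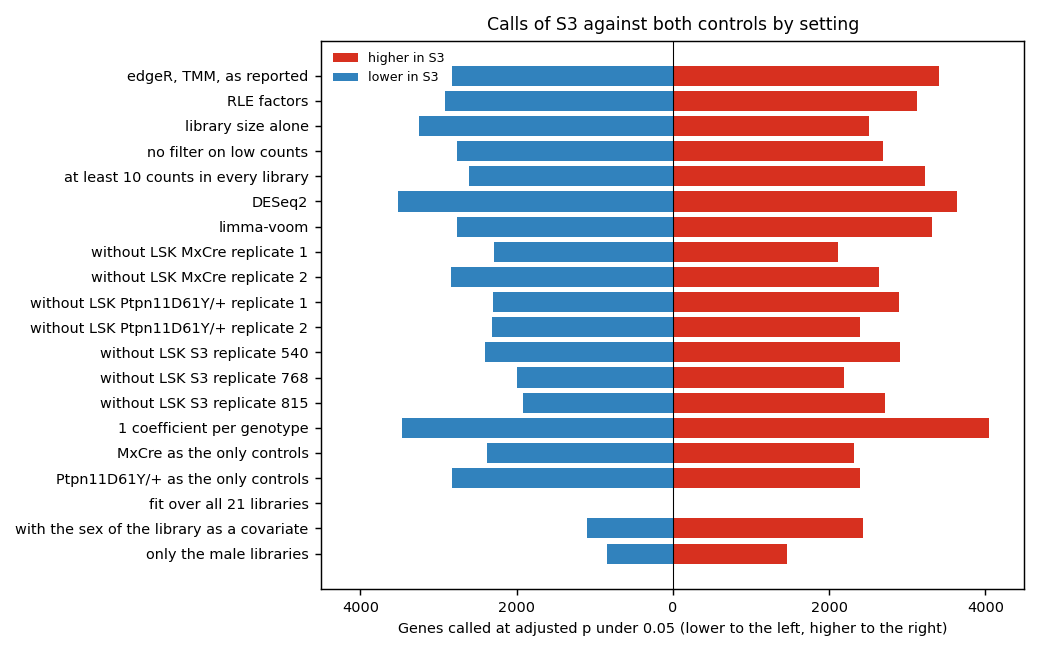
Number of genes called between S3 and both controls in LSK cells at an adjusted p under 0.05 for each setting, with genes higher in S3 to the right and lower to the left. The reported fit has 3404 higher and 2825 lower, the 5 male libraries have 1464 and 846, and the fit of all 21 libraries has 8 and 0.

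Ptpn11 itself (chromosome 5, 121130533 to 121191397, GRCm38) measured 7.32 and 7.37 log2 CPM in the MxCre libraries, 6.54 and 6.45 in the Ptpn11D61Y/+ libraries and 7.78, 7.74 and 7.65 in the S3 libraries. Every S3 library exceeded all 4 controls, and the Ptpn11D61Y/+ libraries were the lowest. S3 was higher by 0.74 ± 0.25 (SE) against both controls, which missed the threshold (adjusted p = 0.053). Against MxCre alone Ptpn11 rose by 0.38 (adjusted p = 0.008), and against Ptpn11D61Y/+ alone by 1.23 (adjusted p = 0.00071). A two-sided exact permutation test over the 7 libraries gave p = 0.0857, where the 35 possible splits allow no p below 0.0286. The test treats the 4 controls as 1 group, although the Ptpn11D61Y/+ libraries lay below the MxCre libraries. The counts do not show which allele was read. Without MxCre 2 the difference was 0.867 and passed the threshold.

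Genes of stem cell identity fell in S3 LSK cells. Of 35 tested, 20 fell and 0 rose (57.1% fell, against 15.6% of all genes), 17 of them consistently, and the median log2 fold change was -1.16 beside -0.0015 over all genes. In the male libraries 10 fell, with a median of -0.96. Fgd5, a marker of long-term stem cells, measured 4.96 and 4.99 log2 CPM in the MxCre libraries, 5.77 and 5.42 in the Ptpn11D61Y/+ libraries and 3.41, 1.86 and 2.60 in the S3 libraries. It was 5.93-fold lower in S3 (log2 fold change -2.57 ± 0.42 (SE), adjusted p = 0.0053), and no S3 library reached the lowest control. Meis1, a homeobox partner of the HOX proteins, measured 7.51 and 7.50 in MxCre, 7.75 and 7.68 in Ptpn11D61Y/+ and 6.70, 6.50 and 6.88 in S3 (-0.92, adjusted p = 0.0017). Procr, the surface receptor EPCR of dormant stem cells, went from 5.41 and 5.13 in MxCre and 6.12 and 5.93 in Ptpn11D61Y/+ to 4.17, 2.41 and 3.31 in S3 (log2 fold change -2.24 ± 0.47 (SE), adjusted p = 0.014), and against MxCre alone it just missed the threshold (adjusted p = 0.051). Prdm16, Erg, Hlf and Mecom, transcription factors needed to maintain stem cells, fell by 1.99, 0.74, 1.48 and 1.31 on the log2 scale (adjusted p = 0.0016, 0.0011, 0.0055 and 0.017), each consistently. Cdkn1c, the p57 inhibitor of quiescent cells, measured 2.98 and 2.68 in MxCre, 3.96 and 3.85 in Ptpn11D61Y/+ and 1.60, 0.40 and 1.02 in S3 (log2 fold change -2.39 ± 0.43 (SE), adjusted p = 0.0062). The control genotypes themselves differed here. Slamf1, which encodes CD150, measured 2.89 and 2.36 in MxCre, 4.76 and 4.03 in Ptpn11D61Y/+ and 3.01, 2.49 and 2.96 in S3, so that S3 overlapped MxCre (0.19, adjusted p = 0.63) but below Ptpn11D61Y/+ (-1.61, adjusted p = 0.0053). Vwf, Hoxb5 and Ctnnal1 were not called against both genotypes together. Cd48, absent from the most immature stem cells, rose (log2 fold change 0.73 ± 0.17 (SE), adjusted p = 0.015), and Kit fell (log2 fold change -0.57 ± 0.10 (SE), adjusted p = 0.0058). Of the genes given here as called, Cd48 (0.46, adjusted p = 0.26), Kit (-0.48, adjusted p = 0.095), Procr (-1.57, adjusted p = 0.087), Cdkn1c (-1.92, adjusted p = 0.11) and Mecom (-0.97, adjusted p = 0.16) were not called in the male libraries.

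The HOXA cluster and its TALE cofactors, homeobox factors of primitive progenitors that are high in many leukemias, fell as well. Of 16 tested, 10 fell and 0 rose (62.5% fell, against 15.6% of all genes), with a median of -0.75, and 9 did so consistently. Hoxa9 measured 6.47 and 6.45 log2 CPM in the MxCre libraries, 6.25 and 6.32 in the Ptpn11D61Y/+ libraries and 5.72, 5.34 and 5.63 in the S3 libraries (log2 fold change -0.80 ± 0.10 (SE), adjusted p = 0.002). Hoxa3 and Hoxa10 fell by 1.25 and 1.21 on the log2 scale (adjusted p = 0.0022 and 0.0042). The male libraries showed 8 falls among the 16. Exons of Hoxa3, Meis1, Prdm16, Mpo, Junb, Bid, Bak1, Ube2c and Jak3 overlap those of another gene, and whether strand was used in counting is not given in the sources used here.

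**Figure D2:**
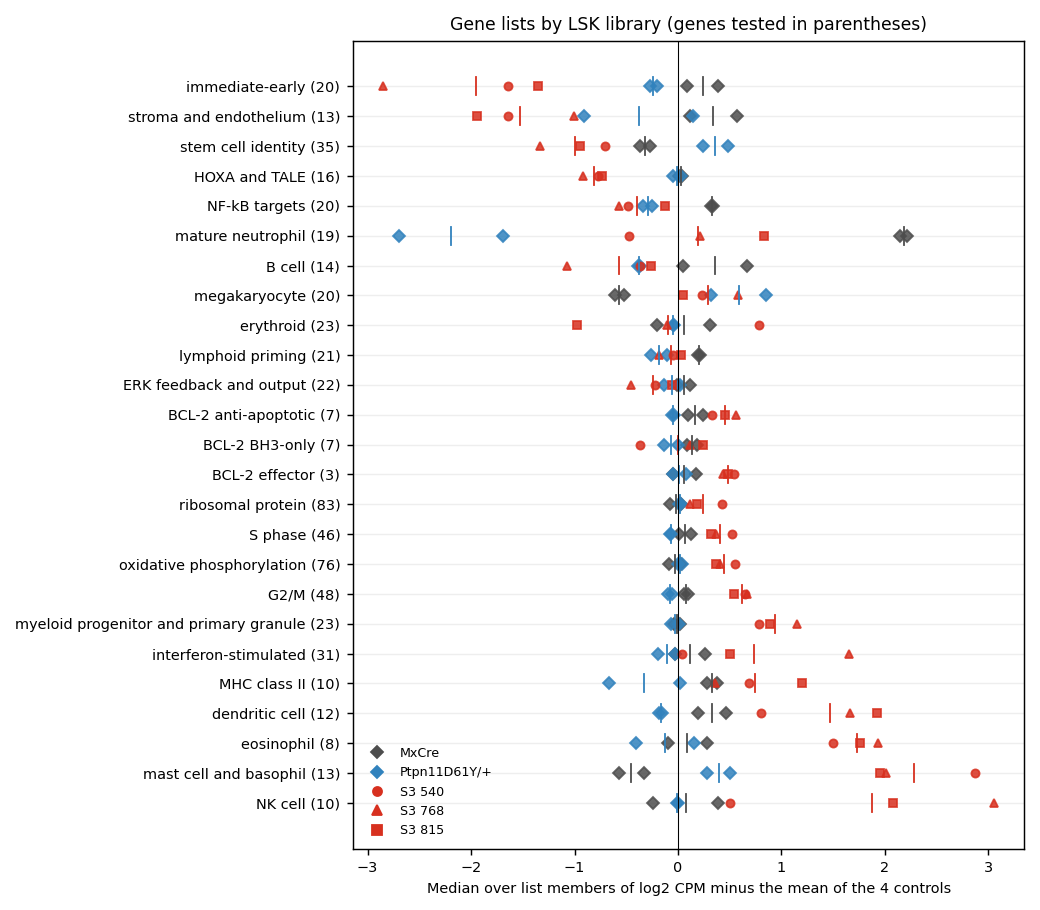
Median over the members of each gene list of log2 CPM minus the mean of the 4 control libraries, in each of the 7 LSK libraries, with a bar at the mean of each genotype and the number of genes tested in parentheses. All 3 S3 libraries lie left of the controls for immediate-early, stem cell identity and HOXA genes and right of them for G2/M, oxidative phosphorylation, myeloid progenitor, eosinophil and mast cell and basophil genes.

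Genes of myeloid progenitors and of primary granules, the first granules made by granulocyte precursors, rose. Of 23 tested, 13 rose and 1 fell (56.5% rose, against 18.9% of all genes), with a median of 0.87, and 8 rose in the male libraries. Mpo, myeloperoxidase, measured 10.73 and 10.52 log2 CPM in the MxCre libraries, 11.15 and 11.10 in the Ptpn11D61Y/+ libraries and 12.16, 12.40 and 11.89 in the S3 libraries, a 2.4-fold rise (log2 fold change 1.26 ± 0.18 (SE), adjusted p = 0.0029). Cebpa, the transcription factor that starts granulocyte and monocyte development, measured 5.87 and 6.06 in MxCre, 5.76 and 5.70 in Ptpn11D61Y/+ and 6.86, 7.01 and 6.96 in S3 (log2 fold change 1.08 ± 0.09 (SE), adjusted p = 0.00095). Fcgr3, a low-affinity IgG receptor, rose 2.64-fold and Plac8 2.65-fold (adjusted p = 0.00078 and 0.0022). Ctsg and Prtn3, serine proteases of the same granules, rose by 1.31 and 0.87 log2 units, while Elane was higher by 0.96 and was not called (adjusted p = 0.084). The single member that fell was Csf3r, the G-CSF receptor (-0.53, adjusted p = 0.049), which was not called against Ptpn11D61Y/+ alone. None of the 19 mature neutrophil genes was called by edgeR, 0 had an unadjusted p under 0.05, and DESeq2 called 3 lower. The control genotypes lay on either side of S3, as for Ltf, lactoferrin, at 9.43 and 9.22 in MxCre, 2.42 and 1.22 in Ptpn11D61Y/+ and 5.52, 6.0 and 7.32 in S3. Monocyte and macrophage genes gave 2 rises among 20 by edgeR (10%, beside 18.9% of all genes), while DESeq2 called 5 and edgeR without S3 540 called 4. The 2 were Ccr2 (2.01, adjusted p = 0.011) and Vcam1 (1.04, adjusted p = 0.011). Ccr2 was not called against MxCre alone (adjusted p = 0.064) or in the male libraries (0.71, adjusted p = 0.068). Ctsg, Prtn3 and Csf3r were also not called there. Csf1r overlapped the controls at 5.77, 7.73 and 8.24 in S3 against 6.89 and 6.89 in MxCre and 5.24 and 4.68 in Ptpn11D61Y/+.

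Of the 12 largest rises named by rule, 6 were in genes of basophils, mast cells and eosinophils. Of 13 mast cell and basophil genes tested, 8 rose and 0 fell with a median of 1.83, and of 8 eosinophil genes 5 rose and 0 fell with a median of 1.74, where 18.9% of all genes rose. All 8 mast cell and basophil rises and 4 of the eosinophil rises were consistent, and 4 and 4 of the rises were also called in the male libraries. The mast cell and basophil genes summed to 135 and 123 CPM in MxCre, 228 and 417 in Ptpn11D61Y/+ and 1710, 1209 and 1008 in S3, with Prss34 the most abundant, and the eosinophil genes to 117 and 94.5 CPM in MxCre, 118 and 97.1 in Ptpn11D61Y/+ and 529, 553 and 413 in S3, with Prg2 the most abundant. Whether committed cells within the sort gave these transcripts was not tested. The promoters of 3 mast cell and basophil genes are shown first because AGATAA is a word bound by GATA factors, which direct these lineages. It was searched on both strands in the 300 bases around the start of each gene (250 before and 50 from the start on, RefSeq, GRCm38.p6) and is in capitals below, also where it reads TTATCT on the printed strand. The sequences are given 5′ to 3′ on the strand of the gene, for Cpa3 at chr3:20242132-20242431 (minus strand), Ms4a2 at chr19:11623670-11623969 (minus strand) and Prss34 at chr17:25298144-25298443 (plus strand).
Cpa3: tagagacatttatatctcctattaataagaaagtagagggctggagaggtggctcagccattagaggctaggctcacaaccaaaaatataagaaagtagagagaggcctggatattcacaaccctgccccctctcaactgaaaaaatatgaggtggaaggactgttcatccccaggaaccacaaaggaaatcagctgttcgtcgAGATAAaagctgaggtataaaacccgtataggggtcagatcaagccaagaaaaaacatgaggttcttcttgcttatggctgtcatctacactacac
Ms4a2: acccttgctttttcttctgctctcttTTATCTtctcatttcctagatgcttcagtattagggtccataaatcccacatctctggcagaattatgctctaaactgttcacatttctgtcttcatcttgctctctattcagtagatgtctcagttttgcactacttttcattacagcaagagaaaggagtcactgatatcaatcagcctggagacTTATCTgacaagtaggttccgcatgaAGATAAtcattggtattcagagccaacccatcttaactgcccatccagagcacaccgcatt
Prss34: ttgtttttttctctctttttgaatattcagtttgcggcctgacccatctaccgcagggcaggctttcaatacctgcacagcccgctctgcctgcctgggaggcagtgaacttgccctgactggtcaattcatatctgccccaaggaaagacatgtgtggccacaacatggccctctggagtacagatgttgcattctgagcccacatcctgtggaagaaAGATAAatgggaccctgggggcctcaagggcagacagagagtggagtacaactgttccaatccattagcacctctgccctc
The word was present in 6 of 12 mast cell and basophil promoters with a sequence, in 1 of 7 eosinophil promoters and in 11.3% of the 27025 genes with a promoter sequence. A match describes letters and is not a bound site.

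Cpa3, carboxypeptidase A of mast cells and basophils, measured 4.23 and 4.42 log2 CPM in the MxCre libraries, 5.09 and 5.47 in the Ptpn11D61Y/+ libraries and 7.68, 7.03 and 6.37 in the S3 libraries and rose 4.71-fold (log2 fold change 2.24 ± 0.42 (SE), adjusted p = 0.0098). Ms4a2, the beta chain of the high-affinity IgE receptor, measured 1.62 and 1.79 in MxCre, 2.96 and 3.96 in Ptpn11D61Y/+ and 6.04, 6.0 and 5.13 in S3, with the Ptpn11D61Y/+ controls between MxCre and S3 (log2 fold change 2.88 ± 0.65 (SE), adjusted p = 0.019). Prss34, a basophil protease, measured 5.14 and 4.74 in MxCre, 6.20 and 7.60 in Ptpn11D61Y/+ and 9.77, 9.09 and 8.99 in S3 (log2 fold change 2.96 ± 0.76 (SE), adjusted p = 0.03), and Mcpt8, another, 4.18 and 3.79 in MxCre, 5.23 and 6.22 in Ptpn11D61Y/+ and 8.81, 7.99 and 8.05 in S3 (log2 fold change 3.17 ± 0.65 (SE), adjusted p = 0.015). In the male libraries the rises of Prss34, Mcpt8 and Ms4a2 were not called (3.37, adjusted p = 0.12, 3.60, adjusted p = 0.079 and 3.10, adjusted p = 0.099), whereas that of Cpa3 was called (2.75, adjusted p = 0.036). Hdc, the enzyme that makes histamine, was narrow within the controls at 5.22 and 5.15 in MxCre and 5.22 and 5.44 in Ptpn11D61Y/+. It measured 7.14, 6.93 and 6.41 in S3 (log2 fold change 1.59 ± 0.16 (SE), adjusted p = 0.0014). Il1rl1, the IL-33 receptor, rose 3.08-fold (adjusted p = 0.0057). Fcer1a, the alpha chain of the IgE receptor, overlapped the controls at 1.07 and 0.73 in MxCre, 2.98 and 3.95 in Ptpn11D61Y/+ and 4.70, 4.36 and 3.90 in S3 and was not called (adjusted p = 0.17). Gata2, which encodes a GATA factor of these lineages, measured 8.05 and 7.96 in MxCre, 8.67 and 8.56 in Ptpn11D61Y/+ and 8.52, 8.38 and 8.24 in S3 and was not called either (0.04, adjusted p = 0.88), while Gata1 rose (0.98, adjusted p = 0.035) but not against Ptpn11D61Y/+ alone (adjusted p = 0.13).

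Among eosinophil genes, Epx, eosinophil peroxidase, measured 3.58 and 3.05 log2 CPM in the MxCre libraries, 4.02 and 2.67 in the Ptpn11D61Y/+ libraries and 7.04, 6.96 and 5.89 in the S3 libraries, a 9.8-fold rise (log2 fold change 3.29 ± 0.42 (SE), adjusted p = 0.0031). It was the largest of the 12 rises named by rule, which asks for an average of 3 log2 CPM or more and no overlap between groups. Prg2, major basic protein, measured 6.08 and 5.65 in MxCre, 6.18 and 6.19 in Ptpn11D61Y/+ and 8.50, 8.33 and 8.07 in S3 (log2 fold change 2.27 ± 0.15 (SE), adjusted p = 0.00078), and its neighbour and paralog Prg3 0.82 and 0.64 in MxCre, 0.91 and 0.60 in Ptpn11D61Y/+ and 3.87, 4.03 and 3.45 in S3 (log2 fold change 3.07 ± 0.18 (SE), adjusted p = 0.00073). For both, the control genotypes lay close together and far below S3. Siglecf, a surface lectin of eosinophils, rose by 1.28 (adjusted p = 0.0011). Il5ra, Ear2 and Ear6 were not called. The Ear genes are close copies of each other, so their counts are uncertain.

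Genes of the dendritic cell lineage rose in the same libraries. Of 12 tested, 8 rose and 0 fell (66.7% rose, against 18.9% of all genes), with a median of 1.59, and 6 rose consistently. The 8 include Klrd1, which NK cells also express. The S3 libraries differed from each other: medians over the 12 genes relative to the control mean were 0.80, 1.67 and 1.93 in S3 540, 768 and 815. In the male libraries 2 rose, with a median of 0.75, and 3 rose with sex as a covariate. The 12 genes summed to 794 and 868 CPM in MxCre, 483 and 567 in Ptpn11D61Y/+ and 724, 1079 and 1197 in S3, with Flt3, which stem and progenitor cells also express, the most abundant. Irf8, the transcription factor that directs monocytes and dendritic cells, measured 7.01 and 7.05 log2 CPM in the MxCre libraries, 6.85 and 6.77 in the Ptpn11D61Y/+ libraries and 7.90, 8.98 and 9.13 in the S3 libraries (log2 fold change 1.84 ± 0.27 (SE), adjusted p = 0.0037). It rose in the male libraries too (0.94, adjusted p = 0.021). Xcr1, a chemokine receptor of cross-presenting dendritic cells, measured 1.10 and 1.01 in MxCre, 1.71 and 3.21 in Ptpn11D61Y/+ and 4.77, 4.46 and 5.38 in S3 (log2 fold change 2.87 ± 0.62 (SE), adjusted p = 0.015), Clec9a of the same cells 2.03 and 1.74 in MxCre, 2.94 and 3.42 in Ptpn11D61Y/+ and 4.20, 4.73 and 5.51 in S3 (log2 fold change 2.23 ± 0.49 (SE), adjusted p = 0.016), and Batf3, their transcription factor, 0.86 and 1.01 in MxCre, -0.42 and 0.85 in Ptpn11D61Y/+ and 2.5, 2.66 and 3.31 in S3 (log2 fold change 2.21 ± 0.36 (SE), adjusted p = 0.0041). Zbtb46, a factor of classical dendritic cells, rose by 1.44 (adjusted p = 0.0032). Tlr3, Naaa, Mycl and Rab7b were among the 12 largest rises by the rule for named genes as well. Tlr3, the endosomal receptor for double-stranded RNA, measured 1.44 and 1.91 in MxCre, 2.01 and 2.82 in Ptpn11D61Y/+ and 4.52, 4.58 and 5.17 in S3 (log2 fold change 2.66 ± 0.33 (SE), adjusted p = 0.0022), and Mycl, a MYC family member expressed in dendritic cells, 1.94 and 2.24 in MxCre, 1.89 and 2.79 in Ptpn11D61Y/+ and 4.19, 4.34 and 5.11 in S3 (log2 fold change 2.35 ± 0.30 (SE), adjusted p = 0.0022). Siglech of plasmacytoid dendritic cells was not called. NK cell genes gave 6 rises among 10 (60%, against 18.9% of all genes), 2 of them consistent, at low levels. They summed to 11.2 and 8.51 CPM in MxCre, 19.8 and 12.9 in Ptpn11D61Y/+ and 11, 64.3 and 30.6 in S3, so that S3 540 lay within the controls and S3 768 was the highest, and Ncr1 had 108, 1265 and 244 counts in S3 540, 768 and 815 against 54 and 39 in MxCre and 65 and 25 in Ptpn11D61Y/+. None of the NK genes was called in the male libraries, and neither were Xcr1, Clec9a, Batf3 and Naaa.

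**Figure D3:**
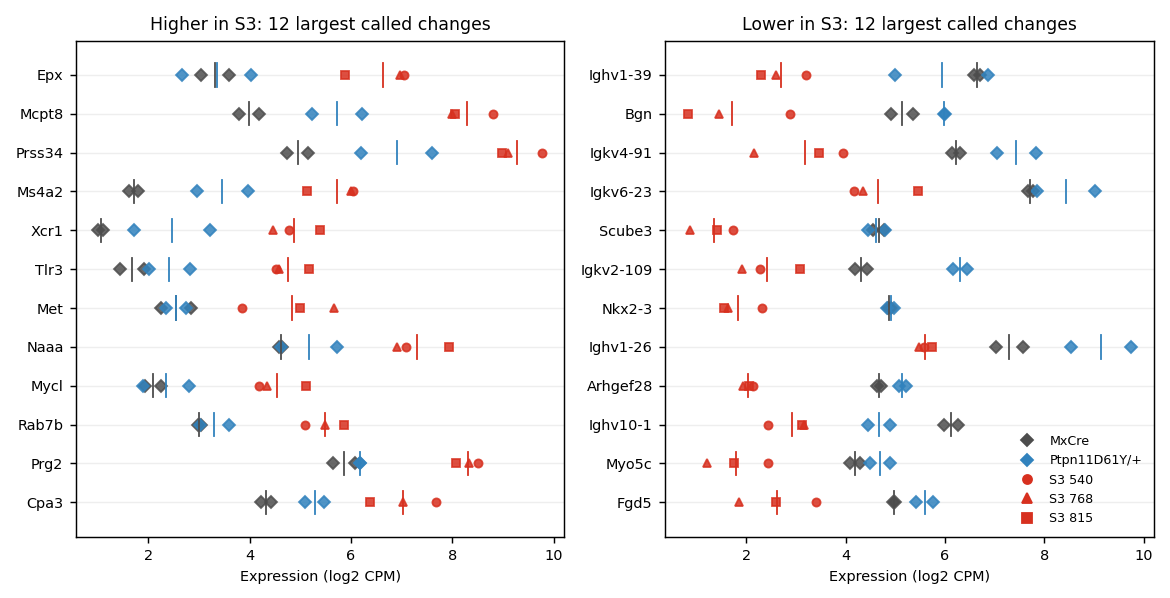
Expression in log2 CPM of the 12 largest rises (left) and 12 largest falls (right) in S3 LSK cells, with 1 point per library and a bar at the mean of each genotype. The genes were chosen for having no overlap between S3 and the controls, so the gap itself is part of the rule, for example 5.89 to 7.04 in S3 against 2.67 to 4.02 in the controls for Epx.

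Genes of DNA replication and mitosis rose together. Of 46 S phase genes, 39 rose and 1 fell, with a median of 0.42, and of 48 G2/M genes 44 rose and 0 fell, with a median of 0.63, where 18.9% of all genes rose. The 44 G2/M rises were all consistent, as were 27 of the S phase rises. The male libraries gave 19 and 34 rises, and scaling to library size alone gave 32 and 44. Cdk1, the kinase that drives entry into mitosis, measured 6.57 and 6.57 log2 CPM in the MxCre libraries, 6.52 and 6.46 in the Ptpn11D61Y/+ libraries and 7.37, 7.29 and 7.23 in the S3 libraries, a 1.7-fold rise (log2 fold change 0.76 ± 0.06 (SE), adjusted p = 0.00084). Plk1, a mitotic kinase, measured 6.15 and 6.25 in MxCre, 6.11 and 6.09 in Ptpn11D61Y/+ and 7.05, 7.01 and 6.90 in S3 (log2 fold change 0.84 ± 0.07 (SE), adjusted p = 0.00084). Ube2c, an enzyme of the anaphase-promoting complex, and Birc5, survivin, rose 1.85-fold and 1.75-fold (adjusted p = 0.001 and 0.00078). Of the S phase genes, Rrm2, a ribonucleotide reductase subunit, measured 6.75 and 6.86 in MxCre, 6.82 and 6.55 in Ptpn11D61Y/+ and 7.51, 7.53 and 7.52 in S3 (log2 fold change 0.77 ± 0.08 (SE), adjusted p = 0.0014), and Tipin rose by 0.48 (adjusted p = 0.0016). The fall was in Chaf1b, a histone chaperone subunit (-0.23, adjusted p = 0.046), which was not called in the male libraries. Mki67, the proliferation antigen Ki-67, measured 9.06 and 8.99 in MxCre, 8.53 and 8.39 in Ptpn11D61Y/+ and 9.23, 9.38 and 9.19 in S3 and missed the threshold (0.49, adjusted p = 0.056), although every S3 library lay above the controls. The promoters of Cdk1 at chr10:69352863-69353162 (minus strand) and Plk1 at chr7:122159185-122159484 (plus strand) are printed because their genes carry the 2 short words of mitotic promoters, CCAAT, bound by NF-Y, and TTTGAA, a cell cycle homology region. Both were searched on both strands and are in capitals, with no match overlapping another in these 2 promoters.
Cdk1: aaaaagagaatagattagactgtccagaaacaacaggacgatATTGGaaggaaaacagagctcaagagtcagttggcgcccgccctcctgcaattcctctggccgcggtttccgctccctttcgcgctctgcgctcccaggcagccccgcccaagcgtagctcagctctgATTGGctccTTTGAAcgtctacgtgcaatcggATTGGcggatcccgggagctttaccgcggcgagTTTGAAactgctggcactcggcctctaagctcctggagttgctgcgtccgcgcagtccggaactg
Plk1: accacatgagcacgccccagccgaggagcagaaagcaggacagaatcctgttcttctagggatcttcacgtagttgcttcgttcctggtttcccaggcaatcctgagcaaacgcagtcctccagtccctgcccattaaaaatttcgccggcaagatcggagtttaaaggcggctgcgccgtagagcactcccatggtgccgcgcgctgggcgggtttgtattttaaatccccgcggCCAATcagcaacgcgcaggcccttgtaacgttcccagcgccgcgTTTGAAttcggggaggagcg
CCAAT was present in 29 of 38 G2/M promoters with a sequence and TTTGAA in 26, against 21 and 5 of 35 S phase promoters and 37.9% and 18.1% of all promoters.

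Of 15 cell cycle inhibitors and D-type cyclins 6 rose and 3 fell (40% and 20%, against 18.9% and 15.6% of all genes), all 3 D-type cyclins among the rises, and 2 rose and 0 fell in the male libraries. Ccnd1 measured 5.28 and 5.29 log2 CPM in the MxCre libraries, 5.74 and 5.81 in the Ptpn11D61Y/+ libraries and 7.07, 6.71 and 6.94 in the S3 libraries (log2 fold change 1.36 ± 0.16 (SE), adjusted p = 0.0017), Ccnd2 rose by 0.70 and Ccnd3 by 0.49 (adjusted p = 0.0011 and 0.0096). Ccnd1 exons overlap a gene on the other strand. Cdkn1b, the p27 inhibitor, fell by 0.38 (adjusted p = 0.026) together with Cdkn1c. Cdkn2a, which encodes p16 and p19Arf, rose from 8 and 5 counts in MxCre and 15 and 13 in Ptpn11D61Y/+ to 45, 29 and 49 in S3 (log2 fold change 2.10 ± 0.41 (SE), adjusted p = 0.0072), a low level in every library. Ccnd3, Cdkn1b, Cdkn1c and Cdkn2a were not called in the male libraries. Oxidative phosphorylation genes of the nucleus rose in 72 of 76 cases and fell in 0 (94.7% rose, against 18.9% of all genes), with a median of 0.45 and 63 consistent rises, and 59 rose in the male libraries. Sdhb of complex II measured 6.23 and 6.37 in MxCre, 6.17 and 6.32 in Ptpn11D61Y/+ and 6.88, 6.82 and 6.78 in S3 (log2 fold change 0.55 ± 0.06 (SE), adjusted p = 0.0016), and Cycs, cytochrome c, 5.59 and 5.60 in MxCre, 5.66 and 5.68 in Ptpn11D61Y/+ and 6.61, 6.49 and 6.49 in S3 (log2 fold change 0.90 ± 0.06 (SE), adjusted p = 0.00073). The mitochondrially encoded genes gave no such count: 0 of 10 were called by edgeR or DESeq2. Their median was -0.07, and 0 had an unadjusted p under 0.05. With sex as a covariate 4 fell, with a median of -0.73. The S3 libraries differed here, with medians relative to the control mean of -0.71, 0.16 and 0.23 in S3 540, 768 and 815, and in the male libraries 1 fell with a median of -0.77. Ribosomal protein genes had a smaller median of 0.25, with 31 rises and 2 falls among 83 (37.3% and 2.41%, against 18.9% and 15.6% of all genes), and 7 consistent. There were 39 rises with a median of 0.39 in the male libraries, and 68 with a median of 0.43 with sex as a covariate. Leaving out 1 library gave 4 (without MxCre 1) to 22 rises (without S3 768). Library size scaling gave 19 rises and a median of 0.18.

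Immediate-early genes, switched on within minutes by ERK and stress signals and many of them transcription factors, were lower in S3 LSK cells. Of 20 tested, 16 fell and 0 rose (80% fell, against 15.6% of all genes), with a median of -1.80. All 3 S3 libraries lay below all 4 controls for 17 of the 20, as for 20.4% of all genes. The fall was consistent for 7 genes, 10 fell in the male libraries with a median of -1.74, and with sex as a covariate 0 were called, with all 20 below 0 and a median of -1.70. Without MxCre 1 or MxCre 2, 10 and 9 genes fell. Zfp36, which speeds the decay of cytokine mRNAs, measured 11.73 and 11.47 log2 CPM in the MxCre libraries, 11.29 and 11.39 in the Ptpn11D61Y/+ libraries and 9.62, 8.06 and 9.56 in the S3 libraries, 4.73-fold lower in S3 (log2 fold change -2.24 ± 0.39 (SE), adjusted p = 0.0064). Junb measured 10.02 and 9.81 in MxCre, 9.34 and 9.43 in Ptpn11D61Y/+ and 7.79, 6.50 and 7.84 in S3 (log2 fold change -2.18 ± 0.37 (SE), adjusted p = 0.0059) and Ier2 9.63 and 9.43 in MxCre, 9.08 and 9.22 in Ptpn11D61Y/+ and 7.85, 6.98 and 7.99 in S3 (log2 fold change -1.68 ± 0.26 (SE), adjusted p = 0.004). Fos, an AP-1 subunit, measured 12.17 and 12.01 in MxCre, 11.85 and 11.94 in Ptpn11D61Y/+ and 10.51, 7.96 and 9.95 in S3 (log2 fold change -2.19 ± 0.57 (SE), adjusted p = 0.029). S3 768 was the lowest for all 4, and Fos was not called against either genotype alone. Egr1 fell by 3.10 (adjusted p = 0.016), with S3 768 again lowest at 5.65 beside 8.33 and 8.19. Dissociation and handling induce these genes. Of 10 heat shock and stress genes, 2 rose and 1 fell, near the shares of all genes (18.9% and 15.6%), with a median of -0.02 and library medians of 1.02, -0.42 and 0.21 in S3 540, 768 and 815. Their median was -0.43 against MxCre and 0.73 against Ptpn11D61Y/+, and 4 rose and 0 fell both in the male libraries and with sex as a covariate, with medians of 0.76 and 0.80. The part of handling in the falls was not tested. Within 17 promoters with a sequence, the CArG box of serum response factor (letters by name only) was present in 1 and TGACGTCA, a cAMP response element, in 2, against 1.56% and 1.87% of all promoters.

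Of 22 targets and feedback inhibitors of ERK tested, 6 rose and 6 fell (27.3% in each direction, against 18.9% and 15.6% of all genes), with a median of -0.30. The sign of the median depended on the control genotype, at -0.32 against MxCre and 0.05 against Ptpn11D61Y/+. Etv4, an ETS factor induced by ERK, had the largest rise of the list and is below the level asked of the 12 rises named by rule. It measured -1.40 and -0.97 log2 CPM in the MxCre libraries, -1.06 and -0.68 in the Ptpn11D61Y/+ libraries and 4.14, 2.86 and 4.05 in the S3 libraries (log2 fold change 4.85 ± 0.35 (SE), adjusted p = 0.00079), and its relative Etv5 rose by 1.0 (adjusted p = 0.0033). Spry4 and Spred2, feedback inhibitors, rose by 1.87 and 0.42 (adjusted p = 0.0016 and 0.015), as did Ccnd1 above. Spry1 and Spry2, relatives of Spry4, fell by 1.37 and 0.74 (adjusted p = 0.033 and 0.018), and Ier3 measured 6.90 and 6.76 in MxCre, 6.24 and 6.33 in Ptpn11D61Y/+ and 4.95, 4.25 and 4.88 in S3 (log2 fold change -1.86 ± 0.24 (SE), adjusted p = 0.0023). Dusp6, a phosphatase of ERK used as a readout of its activity, overlapped at 7.32 and 7.18 in MxCre, 6.55 and 7.11 in Ptpn11D61Y/+ and 7.13, 6.49 and 7.0 in S3 and was not called (-0.17, adjusted p = 0.56). The 6 rises were consistent, and 4 of them were called in the male libraries, Etv4 among them (5.17, adjusted p = 0.014), while Spred2 and Spry2 were not called there. In the SHP2 and RAS pathway 7 of 34 genes rose and 2 fell, with a median of 0.10. The share that rose (20.6%) was near the 18.9% of all genes, and the male libraries gave 2 rises and 3 falls. Without S3 768 or Ptpn11D61Y/+ 2 there were 4 rises, DESeq2 called 10 higher and 4 lower, and the median was -0.01 against MxCre and 0.22 against Ptpn11D61Y/+. Gab1, a docking protein of SHP2, measured 4.94 and 5.01 in MxCre, 4.91 and 4.83 in Ptpn11D61Y/+ and 4.07, 3.65 and 3.52 in S3 (log2 fold change -1.16 ± 0.14 (SE), adjusted p = 0.0016). Nras, which was not called in the male libraries, and Hras rose by 0.25 and 0.57 (adjusted p = 0.014 and 0.0036).

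Of 24 genes of cytokine signaling through JAK, STAT and SOCS proteins 7 fell and 3 rose (29.2% and 12.5%, against 15.6% and 18.9% of all genes). Socs3, an inhibitor of JAK kinases, measured 5.88 and 6.46 log2 CPM in the MxCre libraries, 5.96 and 5.33 in the Ptpn11D61Y/+ libraries and 3.34, 3.06 and 4.53 in the S3 libraries (log2 fold change -2.17 ± 0.45 (SE), adjusted p = 0.013), and Cish, induced by STAT5, 3.23 and 3.86 in MxCre, 3.66 and 3.52 in Ptpn11D61Y/+ and 2.20, 1.87 and 2.33 in S3 (log2 fold change -1.44 ± 0.19 (SE), adjusted p = 0.0021). Socs2 and Pim2 fell by 1.46 and 0.92 (adjusted p = 0.01 and 0.013), and Jak3, the kinase of common gamma chain receptors, by 1.01 (adjusted p = 0.0015). Stat5a and Stat5b were not called, at -0.02 and -0.06 (adjusted p = 0.91 and 0.61). The male libraries gave 7 falls and 0 rises, while leaving out 1 library gave 0 (without MxCre 1 or Ptpn11D61Y/+ 2) to 5 rises (without S3 540). Of 20 NF-kB targets 2 fell and 1 rose by edgeR (10% and 5%, below the 15.6% and 18.9% of all genes), while DESeq2 called 9 lower and 1 higher and edgeR without Ptpn11D61Y/+ 1 called 6 lower. The log2 fold change was below 0 for 17 of them, with a median of -0.43. Those that fell were Nfkbia, the inhibitor IkB alpha, at 7.90 and 7.68 in MxCre, 7.07 and 6.99 in Ptpn11D61Y/+ and 6.33, 5.74 and 6.45 in S3 (log2 fold change -1.26 ± 0.28 (SE), adjusted p = 0.015), and Nfkbiz (-2.41, adjusted p = 0.016). Neither was called in the male libraries (-1.18, adjusted p = 0.14 and -2.95, adjusted p = 0.055). Among 26 growth factor receptors, 5 rose and 5 fell, shares near the 18.9% and 15.6% of all genes, and 2 rose and 0 fell in the male libraries. There were 9 rises without S3 540, 2 without Ptpn11D61Y/+ 2, and 3 rises and 3 falls without S3 768. Ifngr1, the interferon gamma receptor, measured 6.87 and 6.85 in MxCre, 6.87 and 7.01 in Ptpn11D61Y/+ and 7.43, 7.75 and 7.69 in S3 (log2 fold change 0.73 ± 0.09 (SE), adjusted p = 0.0018), and Il3ra, the IL-3 receptor, rose by 0.69 (adjusted p = 0.02) and was not called in the male libraries (0.25, adjusted p = 0.41). Csf2ra and Csf2rb, the chains of the GM-CSF receptor, were not called (0.37, adjusted p = 0.24 and 0.65, adjusted p = 0.06), and neither was Flt3 (-0.45, adjusted p = 0.26).

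The BCL-2 family holds anti-apoptotic, BH3-only and effector members. Of the 7 anti-apoptotic genes tested, 3 rose and 1 fell (42.9% and 14.3%, against 18.9% and 15.6% of all genes), and 0 rose and 1 fell in the male libraries, as with sex as a covariate. Bcl2 measured 6.35 and 6.43 log2 CPM in the MxCre libraries, 6.63 and 6.42 in the Ptpn11D61Y/+ libraries and 6.79, 7.02 and 6.92 in the S3 libraries, a 1.36-fold rise (log2 fold change 0.45 ± 0.09 (SE), adjusted p = 0.0065) that was consistent and was not called in the male libraries (0.29, adjusted p = 0.16). Mcl1 measured 9.22 and 9.02 in MxCre, 8.92 and 8.77 in Ptpn11D61Y/+ and 7.94, 7.70 and 8.49 in S3, 1.88-fold lower in S3 (log2 fold change -0.91 ± 0.20 (SE), adjusted p = 0.012). Every S3 library was below every control, and the fall was consistent and called in the male libraries (-1.09, adjusted p = 0.028). Bcl2l1, which encodes BCL-XL, measured 5.09 and 5.16 in MxCre, 5.08 and 4.92 in Ptpn11D61Y/+ and 5.30, 5.03 and 5.42 in S3. The groups overlapped and it was not called (log2 fold change 0.19 ± 0.10 (SE), adjusted p = 0.18). Bcl2l2 was not called (-0.15, adjusted p = 0.38). Of the near-identical copies of A1, Bcl2a1d and Bcl2a1a rose (2.10, adjusted p = 0.0071, and 1.39, adjusted p = 0.015) and Bcl2a1b was not called (1.16, adjusted p = 0.13). Neither rise was called in the male libraries (1.45, adjusted p = 0.13, and 1.06, adjusted p = 0.20). Reads can be split between these copies, so their separate values are uncertain. Of the 7 BH3-only genes tested edgeR called 1 (14.3%, below the 18.9% of all genes that rose), Bid, at 5.79 and 5.66 in MxCre, 5.70 and 5.81 in Ptpn11D61Y/+ and 6.36, 6.59 and 6.43 in S3 (log2 fold change 0.73 ± 0.07 (SE), adjusted p = 0.0013). Bcl2l11, which encodes BIM, was lower in every S3 library and missed the threshold with edgeR (-0.34, adjusted p = 0.059), while it was called lower by DESeq2, with RLE factors, with library size alone and without Ptpn11D61Y/+ 2. Bbc3 (PUMA), Pmaip1 (NOXA) and Bmf overlapped between groups (-0.64, adjusted p = 0.23; 0.40, adjusted p = 0.47; and 0.57, adjusted p = 0.28), and S3 815 held the highest value of S3 for all 3. Bad was not called (0.21, adjusted p = 0.076), and neither was Bik, at -1.65 and -1.31 in MxCre, -1.12 and -1.05 in Ptpn11D61Y/+ and -1.70, -1.17 and -1.17 in S3. Of the effectors, Bax measured 5.37 and 5.38 in MxCre, 5.43 and 5.50 in Ptpn11D61Y/+ and 5.96, 5.86 and 5.90 in S3 (log2 fold change 0.49 ± 0.06 (SE), adjusted p = 0.0018) and Bak1 5.82 and 6.05 in MxCre, 5.82 and 5.81 in Ptpn11D61Y/+ and 6.41, 6.58 and 6.51 in S3 (log2 fold change 0.63 ± 0.08 (SE), adjusted p = 0.0019). Both rises were consistent and called in the male libraries (0.50, adjusted p = 0.029, and 0.50, adjusted p = 0.049). Bok was not called by edgeR (-0.60, adjusted p = 0.088) and was called lower by DESeq2. Bcl2l10 and Hrk had too few counts to test.

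**Figure D4:**
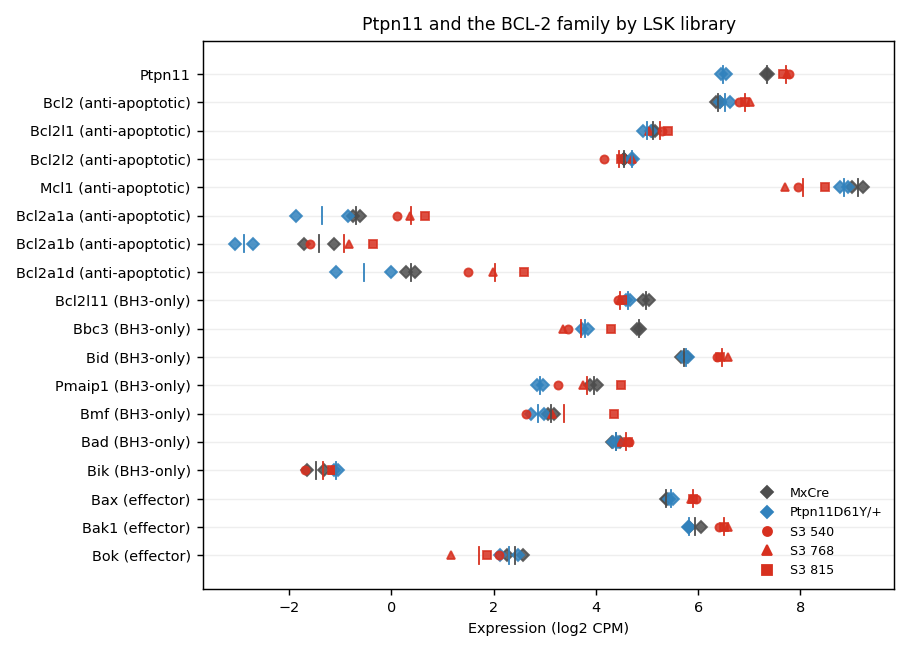
Expression in log2 CPM of Ptpn11 and the 17 BCL-2 family genes tested in the 7 LSK libraries, with a bar at the mean of each genotype. Bid, Bax and Bak1 lie above all controls in the 3 S3 libraries and Mcl1 below them, while Bcl2l1 overlaps.

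Downstream of the BCL-2 family, 6 of 19 caspase, apoptosome and IAP genes rose and 1 fell (31.6% rose, against 18.9% of all genes), and 3 rose in the male libraries. Apaf1, the scaffold of the apoptosome, measured 6.01 and 6.06 in MxCre, 5.93 and 5.78 in Ptpn11D61Y/+ and 6.37, 6.55 and 6.51 in S3 (log2 fold change 0.53 ± 0.08 (SE), adjusted p = 0.0035). Birc2, an inhibitor of apoptosis that acts in TNF receptor signaling, fell by 0.39 (adjusted p = 0.0063). Neither Apaf1 nor Birc2 was called in the male libraries (0.38, adjusted p = 0.092, and -0.45, adjusted p = 0.065). Birc5, which rose, is also a mitotic gene. Among 20 p53 targets 4 rose and 4 fell, with a median of -0.12, shares near the 18.9% and 15.6% of all genes, and 3 rose and 0 fell in the male libraries. Cdkn1a, the p21 inhibitor, overlapped at 5.71 and 5.67 in MxCre, 4.81 and 4.45 in Ptpn11D61Y/+ and 4.62, 4.47 and 5.16 in S3 (-0.48, adjusted p = 0.33), and Gtse1, the most significant, is a G2/M gene as well.

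Interferon-stimulated genes were highest in the S3 768 library. Of 31 tested, 7 rose and 0 fell, with a median of 0.91, and 0 were consistent. The share that rose (22.6%) was near the 18.9% of all genes. An unadjusted p under 0.05 was reached by 14, and DESeq2 called 14. The library medians relative to the control mean were 0.04, 1.65 and 0.51 in S3 540, 768 and 815. Without S3 768 the median was 0.19, with 4 called higher and 1 lower, without MxCre 1 or Ptpn11D61Y/+ 2 none was called, without S3 540 18 were, and in the male libraries it was -0.04 with 0 called. Usp18, a feedback inhibitor of interferon signaling, measured 3.14 and 3.79 log2 CPM in the MxCre libraries, 3.28 and 3.0 in the Ptpn11D61Y/+ libraries and 4.06, 6.05 and 4.74 in the S3 libraries (log2 fold change 1.86 ± 0.48 (SE), adjusted p = 0.026). Isg15, a ubiquitin-like modifier, was not called, at 3.14 and 3.50 in MxCre, 2.82 and 2.59 in Ptpn11D61Y/+ and 3.40, 5.78 and 3.88 in S3. A core of the interferon-stimulated response element, 2 GAAA words 2 bases apart on either strand, was present in 13 of 22 promoters of the list against 3.49% of all. Of 21 genes of the interferon gamma response 7 rose and 1 fell (33.3% rose, against 18.9% of all genes), with a median of 0.24. The direction turned in the male libraries, where 0 rose and 4 fell with a median of -0.26, and without S3 768 there were 3 rises and 3 falls with a median of 0.01. There were 3 rises also without any other single library, except 11 without S3 540. The fall in the 7 libraries was in Cd274, PD-L1, at 5.71 and 5.71 in MxCre, 5.78 and 5.74 in Ptpn11D61Y/+ and 4.91, 5.35 and 5.39 in S3 (log2 fold change -0.50 ± 0.11 (SE), adjusted p = 0.013). Of 10 MHC class II genes 5 rose and 0 fell (50% rose, against 18.9% of all genes), 1 consistently. The count was 1 in the male libraries, 2 without MxCre 1, Ptpn11D61Y/+ 2, S3 540 or S3 815, and 3 without S3 768. H2-Aa measured 7.97 and 8.13 in MxCre, 6.98 and 7.72 in Ptpn11D61Y/+ and 8.95, 8.42 and 9.42 in S3 (log2 fold change 1.23 ± 0.32 (SE), adjusted p = 0.027), and was not called against MxCre alone (adjusted p = 0.10). Its regulator Ciita rose by 1.40 (adjusted p = 0.015). Usp18, H2-Aa and Ciita were not called in the male libraries.

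Homing and adhesion genes changed in 17 of 25 cases, 12 up and 5 down (48% and 20%, against 18.9% and 15.6% of all genes), and 5 rose without S3 768, 6 without S3 815 and 7 without Ptpn11D61Y/+ 2. Cxcr4, the receptor that retains cells in the marrow, measured 6.66 and 6.83 log2 CPM in the MxCre libraries, 6.66 and 6.28 in the Ptpn11D61Y/+ libraries and 7.29, 7.17 and 7.28 in the S3 libraries (log2 fold change 0.62 ± 0.12 (SE), adjusted p = 0.0071), and Itgb7, an integrin chain, 6.40 and 6.28 in MxCre, 5.82 and 6.26 in Ptpn11D61Y/+ and 7.07, 7.43 and 7.68 in S3 (log2 fold change 1.21 ± 0.18 (SE), adjusted p = 0.0031). Robo4, an adhesion receptor of stem cells and endothelium, measured 5.70 and 5.90 in MxCre, 5.58 and 5.77 in Ptpn11D61Y/+ and 3.63, 3.37 and 3.87 in S3, 4.31-fold lower in S3 (log2 fold change -2.11 ± 0.13 (SE), adjusted p = 0.00073), and S1pr1, which guides exit from the marrow, fell by 1.14 (adjusted p = 0.0035). Of these genes, 1 rose and 1 fell in the male libraries, where Cxcr4, Itgb7 and S1pr1 were not called. Of 13 genes of stroma and endothelium 7 fell and 0 rose (53.8% fell, against 15.6% of all genes), with a median of -1.81. In the male libraries 1 fell with a median of -1.95, and without Ptpn11D61Y/+ 2 the count was 11. They summed to 221 and 242 CPM in MxCre, 163 and 124 in Ptpn11D61Y/+ and 67.1, 85.1 and 88.9 in S3, Pdgfrb being the most abundant, and Cdh5 of endothelium was at 1.37 and 2.02, 2.08 and 1.20 and 0.03, 0.52 and 0.61 log2 CPM in the same order. Emcn, endomucin, which marks both endothelium and stem cells, measured 3.73 and 3.90 in MxCre, 3.86 and 4.05 in Ptpn11D61Y/+ and 1.99, 1.03 and 1.88 in S3 (log2 fold change -2.21 ± 0.24 (SE), adjusted p = 0.0015). Whether stem cells or other cells gave these transcripts was not tested.

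Of the 12 largest falls by the rule, 6 were immunoglobulin variable segments, with Ighv1-39 at 6.58 and 6.71 log2 CPM in the MxCre libraries, 6.88 and 5.0 in the Ptpn11D61Y/+ libraries and 3.21, 2.60 and 2.29 in the S3 libraries (log2 fold change -3.70 ± 0.54 (SE), adjusted p = 0.0045). These segments form families of near-identical copies, so their counts are uncertain, and none of the 6 was called between the control genotypes. In the male libraries only Igkv6-23 of the 6 was called (-4.06, adjusted p = 0.048). Igkc did not follow them to a call (-1.25, adjusted p = 0.18). The other falls were in Scube3, Nkx2-3, Arhgef28, Myo5c, Bgn and Fgd5. Nkx2-3, a homeobox factor, measured 4.85 and 4.91 in MxCre, 4.97 and 4.84 in Ptpn11D61Y/+ and 2.31, 1.63 and 1.55 in S3 (log2 fold change -3.03 ± 0.20 (SE), adjusted p = 0.00073), with the control genotypes close together. Scube3, a secreted signaling protein, measured 4.78 and 4.56 in MxCre, 4.45 and 4.79 in Ptpn11D61Y/+ and 1.73, 0.88 and 1.42 in S3 (log2 fold change -3.28 ± 0.22 (SE), adjusted p = 0.00074), and Arhgef28, a guanine nucleotide exchange factor, 4.72 and 4.64 in MxCre, 5.22 and 5.07 in Ptpn11D61Y/+ and 2.14, 1.93 and 2.06 in S3 (log2 fold change -2.89 ± 0.17 (SE), adjusted p = 0.00073). Bgn, the proteoglycan biglycan on the X chromosome, measured 5.36 and 4.91 in MxCre, 6.0 and 5.98 in Ptpn11D61Y/+ and 2.88, 1.45 and 0.82 in S3 (log2 fold change -3.65 ± 0.62 (SE), adjusted p = 0.0071). All 4 were called in the male libraries. Of the rises, Met, the hepatocyte growth factor receptor, measured 2.25 and 2.85 in MxCre, 2.73 and 2.34 in Ptpn11D61Y/+ and 3.84, 5.66 and 4.98 in S3 (log2 fold change 2.45 ± 0.40 (SE), adjusted p = 0.0052), and was lowest of S3 in the male library.

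The control genotypes differed from each other in 319 genes (1.77%), 82 higher and 237 lower in Ptpn11D61Y/+ than in MxCre, and 9 of the 19 mature neutrophil genes and 6 of 23 erythroid genes were among the lower. Ptpn11 was lower in Ptpn11D61Y/+ by 0.85 (adjusted p = 0.013). Whether the S3 change differs between LSK and BM CD11b+ cells was tested in 1 fit of the 14 BM libraries. Of 18828 genes 0 were called by edgeR (0%), 948 had an unadjusted p under 0.05, and DESeq2 called 94. In BM CD11b+ cells 3 genes were called in the same fit. List medians there were -0.16 for G2/M, 0.08 for oxidative phosphorylation, -0.78 for immediate-early and 3.07 for mast cell and basophil genes. In LSK cells they were 0.63, 0.45, -1.80 and 1.83. By edgeR no change reported here was shown to be particular to LSK cells, and the 94 DESeq2 calls are not listed here. The spread of the CD11b+ libraries enters the error of this fit. The 0 calls therefore do not show that the changes are alike in LSK and BM CD11b+ cells.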

How the data were processed

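RNA-seq of sorted LSK and CD11b+ cells was deposited by the authors as raw counts per Ensembl gene, made from 100 bp paired-end stranded mRNA libraries. The submitters' processing notes name Trim Galore 0.6.5, STAR 2.5.3a and GRCm38/mm10. The counting program, its annotation and its use of strand are not given in the sources used here. Of 45706 identifiers, 45143 had a symbol in GENCODE M21.

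Counts were tested with edgeR 4.0.16 in R 4.3.3 (TMM scaling, at least 10 counts by filterByExpr, robust quasi-likelihood test, Benjamini-Hochberg adjustment), with S3 against the 4 controls in the 7 LSK libraries. One coefficient per genotype gave the comparisons with each control, and 14 BM libraries gave the interaction with CD11b+ cells. DESeq2 1.42.0 and limma 3.58.1 were among the alternatives. Named genes were the 12 largest rises and 12 largest falls called against both controls and each of them, averaging 3 log2 CPM or more with no overlap, Ptpn11, the BCL-2 family, and up to 4 called members of smallest p per list. Others in the text, including those of a pathway set beside them, were chosen after their values were seen. The members and lists were chosen with earlier results of these data known. The sex covariate and the male libraries alone were alternatives chosen after seeing the data. Promoters are RefSeq, GRCm38.p6.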

Additional observations from a re-analysis of the deposited data

Results flagged for a closer look

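Among 161 named genes in the 4 control LSK libraries, 9 had 1 library far from the other 3, where chance puts about 1 in 20 groups so far apart. Ptpn11D61Y/+ 2 was the highest for Naaa at 5.72 log2 CPM, for Rab7b at 3.59 and for Ifngr1 at 7.01, and the lowest for Ighv1-39 at 5.0, for Cma1 at -2.47 and for Hspd1 at 8.33. Ptpn11D61Y/+ 1 was the highest for Igkv6-23 at 9.02 and the lowest for Batf3 at -0.42. MxCre 2 was the highest for Bak1 at 6.05. All 3 S3 libraries lay beyond all 4 controls for each of the 9 genes. The rule for the largest changes required this of Naaa, Rab7b, Ighv1-39 and Igkv6-23. The others except Bak1 were named because they were called, so the lack of overlap is largely part of the choice.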

How the results depend on the processing

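Counts of called genes between S3 and both controls stayed between 4188 and 5476 when any 1 library was left out and within 1.5 times the reported 6229 under other scaling, filters, DESeq2 and limma-voom. They fell to 3539 with the sex of the library as a covariate, to 2310 in the male libraries and to 8 in the fit over all 21 libraries. Against MxCre the count ran from 1209 to 6274 over the libraries left out, lowest without MxCre 1 and at 1821 without MxCre 2, and was 6 in the fit over 21 libraries. Against Ptpn11D61Y/+ it ran from 2536 to 7134, lowest without Ptpn11D61Y/+ 2 and at 2956 without Ptpn11D61Y/+ 1, and was 19 over 21 libraries. Between the control genotypes the 319 calls became 660 with no filter, 194 with at least 10 counts in every library, 1480 with DESeq2 and 12 over 21 libraries, and ran from 1 (without Ptpn11D61Y/+ 1) to 1295 (without S3 540) over the libraries left out. The interaction with BM CD11b+ cells gave 94 calls with DESeq2 and 0 to 4 over the libraries left out, with 4 without BM CD11b+ MxCre 1. The cause of these shifts was not tested.

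Deviations of same-numbered MxCre and Ptpn11D61Y/+ LSK libraries from their genotype means correlated at -0.0486. Those of LSK and BM CD11b+ libraries correlated between -0.175 and 0.0692. The values were 0.0692 for S3 540 and -0.0967 for S3 815, although each pair shares an animal number. With 2 libraries per control genotype, each deviation is a single difference, so the values cannot decide whether replicate numbers pair the control samples. With the replicate number as a replicate block, 34 genes were called between the control genotypes. The S3 numbers 540 and 815 each label both an LSK and a BM CD11b+ library, although those of 540 differ in sex-linked counts, as given above. A replicate block on that number left the interaction with 0 calls. It left 243 genes at an unadjusted p under 0.05, against 948 without it.

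Ptpn11 was at 0.745 in the reported fit. It passed the threshold with at least 10 counts in every library (0.727), DESeq2 (0.727), limma-voom (0.806) and 1 coefficient per genotype (0.807). It also passed with MxCre (0.351) or Ptpn11D61Y/+ (1.191) as the only controls. Over the libraries left out it ran from 0.575 to 0.867, passing only without MxCre 2. With RLE factors (0.727), library size alone (0.672) or no filter (0.715) it did not pass. Neither did it pass with the sex covariate (0.799) or over all 21 libraries (0.818). In the male libraries the difference was 0.759.

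The medians of 43 gene lists moved by less than the spread between S3 libraries in 697 list and setting pairs, and by more in the rest. The sign differed from the reported fit in 53 of 816 pairs, over 18 lists, and in 17 of the 53 the reported median was larger than that spread. The 17 are given first. With the sex covariate and in the male libraries, the signs changed for interferon-stimulated genes (-0.003 and -0.044), growth factor receptors (-0.125 and -0.165), epigenetic regulators (-0.016 and -0.056) and, as a single gene outside that count, Xist (-3.554 and -3.588), and in the male libraries for the SHP2 and RAS pathway (-0.003). With MxCre as the only controls they changed for the SHP2 and RAS pathway (-0.041), p53 targets (0.013) and epigenetic regulators (-0.088), and with Ptpn11D61Y/+ as the only controls for lymphoid priming (0.068), megakaryocyte (-0.251) and ERK feedback genes (0.01). Over the libraries left out, medians ran from -0.08 to 0.576 for megakaryocyte genes and from -0.013 to 0.08 for epigenetic regulators, both lowest without S3 768, and the latter also changed without Ptpn11D61Y/+ 2 and with library size alone (-0.011 in both). The other 36 changes concern reported medians no larger than that spread. With the sex covariate and in the male libraries these were the interferon gamma response (-0.219 and -0.26), MHC class I (-0.094 and -0.134), BH3-only (-0.375 and -0.416), pattern recognition (-0.094 and -0.134) and heat shock genes (0.796 and 0.756). Named genes kept direction and side of the threshold in 2564 gene and setting pairs, lost the call in 457 and gained it in 12.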

Other observations

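The other gene lists gave these counts by edgeR, beside 18.9% of all genes that rose and 15.6% that fell. Of 23 erythroid genes 2 rose and 0 fell between S3 and both controls. DESeq2 called 2 of them higher and 6 lower, 7 rose without S3 815, and 4 rose in the male libraries. Of 20 megakaryocyte genes 0 rose and 1 fell, while DESeq2 called 2 in each direction. Of 21 lymphoid priming genes 3 rose and 4 fell. The counts were 2 and 2 without S3 768, 1 and 4 without Ptpn11D61Y/+ 2 and 1 and 3 without S3 815. Their median was -0.19, and -0.09 in the male libraries. Of 29 lineage transcription factors 5 rose and 7 fell, with 4 and 4 without S3 768 and 6 and 2 in the male libraries. Of 18 epigenetic regulators 3 rose and 2 fell, with 1 and 2 without S3 768 and 0 and 1 in the male libraries. Of 13 MHC class I genes 4 rose and 2 fell, and 0 rose without MxCre 1, MxCre 2, S3 768 or S3 815, with sex as a covariate or in the male libraries. Of 18 pattern recognition genes 1 rose and 0 fell, and DESeq2 called 3 higher and 1 lower. Of 14 B cell genes 0 rose and 2 fell, and DESeq2 called 5 lower. Of 14 T cell genes 1 rose and 1 fell, with 3 and 1 by DESeq2 and 0 called without S3 815. Of 593 X-linked genes tested, 110 rose and 118 fell, and of 11 Y-linked genes 0 rose and 3 fell.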
